A study of Mus musculus with 12 samples.

Results

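The matrix metalloproteinases and their tissue inhibitors were followed through 4 treatment groups of a mouse mammary tumor. The members were 10 genes picked by symbol, 8 metalloproteinases (Mmp2, Mmp3, Mmp9, Mmp10, Mmp11, Mmp12, Mmp13 and Mmp14) and 2 inhibitors (Timp1 and Timp2), out of 55401 genes in the expression table. All 10 were among the 15504 genes that passed the filter on low values and were tested. Levels are given as TPM, that is, the deposited FPKM (fragments divided by transcript length and by the mapped fragments of the library) after each library was scaled to an equal total. A gene was called changed where the adjusted p of limma was below 0.05 and the change was at least 1.5-fold.

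Matrix metalloproteinases are zinc-dependent endopeptidases that cut collagens, elastin, gelatins, laminins and other proteins of the extracellular matrix, and also release growth factors and cytokines held there. Most are secreted as inactive precursors whose propeptide must be removed, and some stay anchored in the cell membrane. Tissue inhibitors of metalloproteinases bind the active site and block it. In tumors, fibroblasts, cancer cells, macrophages and neutrophils each make their own selection of these enzymes, and mRNA levels do not report how much of the enzyme is active.

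The tumors came from 4T1, a single transplantable mammary carcinoma line, injected orthotopically in Balb/c mice that were 6 to 8 weeks old on arrival. The groups received a control isotype IgG1-Fc (called control), a recombinant IL10-Fc protein (IL-10-Fc), a CSF1R antibody (aCSF1R) or the IL10/CSF1R fusion protein BF10, a CSF1R antibody joined to interleukin-10. CSF1R is the receptor through which colony stimulating factor 1 keeps macrophages alive, and interleukin-10 is a cytokine that acts on T cells and myeloid cells. Dosing began at a tumor volume of 100 mm3 and ran for 6 doses by the sample labels and 4 by the description of the series, so the number of doses is uncertain. Each group had 3 tumors with 1 library each, named here by the replicate number of the sample title.

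The 12 libraries fell into 2 sets. In 5 of them, called higher-sum (control 4, control 7, IL-10-Fc 7, aCSF1R 8 and BF10 6), the deposited FPKM values summed to 782919 to 921581, and in the other 7, called lower-sum, to 609695 to 648413. Mitochondrial genes took 5.90 to 9.26% of the TPM in the higher-sum and 3.14 to 3.96% in the lower-sum libraries. The control group held 2 higher-sum libraries and each treated group 1, so the changes against control are given also with the library set as a term of the model. The relative depth of the libraries, read from the steps of low values, ranged from 0.918 to 1.07 of their median. Markers of epithelial cells summed to 670 to 2290 TPM, of fibroblasts to 789 to 2129 TPM and of skeletal muscle to at most 41.0 TPM, so the tissue carried the transcripts of a carcinoma with stroma and little muscle.

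Of the 10 members, 4 lie close together on chromosome 9, where the positions of genes outside the members were not looked up. In GRCm38, the genes of Mmp13 (chr9:7272514-7283331), Mmp12 (chr9:7344381-7369499), Mmp3 (chr9:7445822-7455975) and Mmp10 (chr9:7502352-7510240) lie on the plus strand within 237.727 kb. The remaining members are dispersed, Mmp2 on chromosome 8, Mmp9 on 2, Mmp11 on 10, Mmp14 on 14, Timp2 on 11 and Timp1 on X. Sequence before the start site was at hand for 8 of the 10 members from RefSeq (GRCm38.p6), the others being Mmp2 and Mmp9. The 200 bases before the start of the 4 clustered genes are shown, for Mmp12 those before the earlier of its RefSeq starts. Of these genes only Mmp12 was called in the comparison of the antibody with control. Capitals mark matches to the letters of AP-1 or PU.1. AP-1, the Fos and Jun family of factors, was searched as TGACTCA, and on the other strand as TGAGTCA. PU.1, a factor of the myeloid lineage, was searched as GAGGAAGT, and on the other strand as ACTTCCTC. The windows, in the order of the chromosome, were chr9:7272314-7272513, chr9:7344197-7344396, chr9:7445622-7445821 and chr9:7502142-7502341.
Mmp13: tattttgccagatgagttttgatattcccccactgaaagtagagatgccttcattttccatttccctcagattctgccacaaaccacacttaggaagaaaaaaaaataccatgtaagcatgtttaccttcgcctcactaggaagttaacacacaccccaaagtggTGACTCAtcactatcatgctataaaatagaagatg
Mmp12: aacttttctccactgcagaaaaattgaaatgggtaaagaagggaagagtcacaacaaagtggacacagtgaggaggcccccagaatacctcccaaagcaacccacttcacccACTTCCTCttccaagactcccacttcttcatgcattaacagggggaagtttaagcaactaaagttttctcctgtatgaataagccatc
Mmp3: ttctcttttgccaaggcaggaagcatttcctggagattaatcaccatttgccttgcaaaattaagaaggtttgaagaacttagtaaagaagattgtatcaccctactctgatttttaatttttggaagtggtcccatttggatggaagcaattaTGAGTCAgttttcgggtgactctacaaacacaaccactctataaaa
Mmp10: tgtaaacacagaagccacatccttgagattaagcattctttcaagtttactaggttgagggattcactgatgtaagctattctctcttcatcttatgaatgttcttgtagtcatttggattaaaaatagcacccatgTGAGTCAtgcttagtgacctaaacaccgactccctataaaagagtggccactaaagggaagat

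The AP-1 letters stood at -35 to -29 in Mmp13, at -46 to -40 in Mmp3 and at -63 to -57 in Mmp10, counted from the RefSeq start. In the Mmp12 window they were not found, and the PU.1 letters stood at -88 to -81 on the other strand. RefSeq lists a second start of Mmp12 further into the gene, and its window (chr9:7347174-7347373) held the AP-1 letters at -44 to -38. That window held no PU.1 letters, and which start the tumors used was not determined. The letters of the TATA box were searched as TATAAA, or TTTATA on the other strand. They stood at -16 to -11 in Mmp13, at -7 to -2 in Mmp3 and at -29 to -24 in Mmp10, and were not found in the Mmp12 window. The letters TTCNNNGAA, which many STAT factors bind, were found in none of the 4 windows. Of 32851 promoter windows of the same length, 3.66% held the AP-1, 2.06% the PU.1, 9.96% the TATA and 5.49% the STAT letters on either strand. These are matches of letters and no measurement of binding.

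Mmp12, the macrophage metalloelastase that cleaves elastin, was the member that changed, and it fell with the antibody. Its level was 232, 101 and 131 TPM in control 4, 5 and 7, and 9.69, 14.9 and 24.3 TPM in aCSF1R 4, 6 and 8. The groups did not overlap, and the highest aCSF1R tumor lay below the lowest control tumor. The group means were 154 ± 68.5 TPM (SD, n = 3) in control and 16.3 ± 7.41 TPM (SD, n = 3) in aCSF1R, and on the log2(TPM + 1) scale the level fell by 3.17 (SE 0.41, 95% confidence interval -4.08 to -2.26, adjusted p = 0.0043 by limma). It was the only member of the 10 called in this comparison, in which 0.568% of all tested genes were called lower and 3.68% were lower with no overlap between the groups. Fewer macrophages and less Mmp12 RNA per macrophage cannot be told apart in bulk tissue.

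The fusion protein did not share this low level. BF10 3, 6 and 7 held 172, 213 and 111 TPM of Mmp12, each above the highest aCSF1R tumor. Against aCSF1R, Mmp12 was higher in BF10 by 3.30 on the log2 scale (SE 0.41, 95% confidence interval 2.39 to 4.21, adjusted p = 0.0040 by limma), and it was again the only one of the 10 members called, where 0.735% of all tested genes were called higher and 4.33% were higher without overlap. BF10 and control overlapped, with a difference of 0.14 (95% confidence interval -0.77 to 1.05), or 0.35 (-0.32 to 1.02) with the library set as a term. IL-10-Fc 2, 4 and 7 held 150.0, 269 and 229.6 TPM. IL-10-Fc had the highest group mean at 216 ± 60.5 TPM (SD, n = 3), but it overlapped control and BF10, and its difference from control was 0.53 (95% confidence interval -0.38 to 1.44). In the model that holds the library set this difference was 0.74 (95% confidence interval 0.070 to 1.42, unadjusted p = 0.033, adjusted p = 0.942 by limma). The order of the means was therefore IL-10-Fc, BF10, control and aCSF1R, in which control and aCSF1R were the only neighbours that differed beyond their spread.

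Both Mmp12 differences held their size within each set of libraries. Between aCSF1R and control the log2 change was -2.96 among the lower-sum libraries (2 tumors against 1) and -2.79 among the higher-sum libraries (1 against 2). BF10 exceeded aCSF1R by 3.42 among the lower-sum libraries (2 tumors against 2) and by 3.08 among the higher-sum libraries (1 against 1). Leaving out single tumors gave -3.49 to -2.83 for aCSF1R against control and 3.00 to 3.62 for BF10 against aCSF1R, all past the threshold. The call, in contrast to the size, was lost under several other ways of fitting. With scaling by the median of ratios the adjusted p by limma was 0.0683 for aCSF1R against control and 0.0864 for BF10 against aCSF1R, with only the 2 groups compared in the model it was 0.145 and 0.106, and with the lower-sum libraries alone it was 0.140 for aCSF1R against control. Once the model held the library set, the 2 adjusted p were 0.00032 and 0.00011.

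Macrophage markers, like Mmp12, were low in aCSF1R alone. Of the 10 markers, 6 were called lower in aCSF1R than in control, and 10 with the library set as a term, and 6 were called higher in BF10 than in aCSF1R. The lowest and the highest of the 10 by mean level were Cx3cr1 and C1qa, and none was listed at 0 in any library. Their summed level was 1769 to 2264 TPM in control, 1474 to 1686 TPM in IL-10-Fc, 82.4 to 262 TPM in aCSF1R and 1760 to 1820.1 TPM in BF10. The sum was mostly that of C1qa, C1qb and C1qc, with means of 453, 248 and 390 TPM over all libraries, against 8.25 to 88.8 TPM for the other markers. IL-10-Fc, with the highest group mean of Mmp12, had marker sums below that of every control tumor. Taken singly, 6 of the 10 markers were above 0 and 4 below 0 for IL-10-Fc against control, and 0 were called. Their median log2 change was 0.062, beside 0.35 for all tested genes, and -0.14 with the library set as a term. Within the aCSF1R group the order was inverse, as aCSF1R 8 held the most Mmp12 and the smallest marker sum, and aCSF1R 4 the least Mmp12 and the largest marker sum. The part of macrophage number in the Mmp12 difference was not tested.

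**Figure D1:**
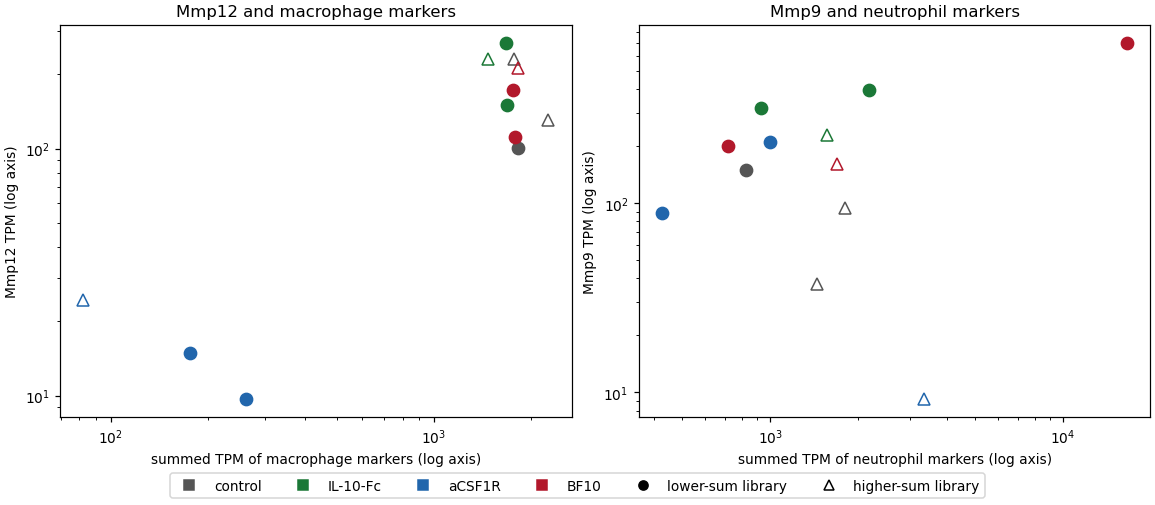
Left, Mmp12 TPM (log axis) against the summed TPM of 10 macrophage markers (log axis), and right, Mmp9 TPM (log axis) against the summed TPM of 7 neutrophil markers (log axis), each point 1 of the 12 tumors, colored by treatment, with open triangles for the higher-sum libraries. The 3 aCSF1R tumors lie alone at the lower left of the first panel, with at most 24.3 TPM of Mmp12, and BF10 3 lies alone at the upper right of the second, with 704 TPM of Mmp9.

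Of the gelatinases, Mmp9 had its highest group means where interleukin-10 was given, but no change passed the test. Mmp9 (gelatinase B, at chr2:164940780-164955850) is abundant in the granules of neutrophils. It was at 94.1, 148 and 37.4 TPM in control 4, 5 and 7 and at 319, 397 and 229 TPM in the IL-10-Fc tumors 2, 4 and 7. In BF10 3, 6 and 7 it was at 704, 161 and 201 TPM, and in aCSF1R 4, 6 and 8 at 210.3, 88.0 and 9.20 TPM. Every IL-10-Fc and every BF10 tumor lay above every control tumor. The aCSF1R group overlapped control, and its highest tumor, aCSF1R 4, lay above BF10 6 and BF10 7 but below every IL-10-Fc tumor. IL-10-Fc and aCSF1R were not compared by limma. No other member had a wider spread across the 12 tumors, the highest value being 76.5 times the lowest.

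For IL-10-Fc against control the log2 change of Mmp9 was 1.91 (SE 0.98, 95% confidence interval -0.25 to 4.08, unadjusted p = 0.077, adjusted p = 0.738 by limma). BF10 against control gave 1.80 (95% confidence interval -0.36 to 3.96, unadjusted p = 0.094, adjusted p = 0.788 by limma). Mmp9 was the only member that did not overlap in these 2 comparisons, in which 4.75% and 2.36% of all tested genes were higher without overlap. With the library set as a term the changes were 1.34 and 1.22, and the change between aCSF1R and control was -1.08 in place of -0.50. BF10 exceeded aCSF1R by 2.30 (95% confidence interval 0.14 to 4.46, unadjusted p = 0.039, adjusted p = 1 by limma, and 0.138 with the library set as a term), and these groups overlapped. BF10 and IL-10-Fc differed by -0.11 (95% confidence interval -2.28 to 2.05), an interval too wide to call them alike.

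Single tumors weighed on the Mmp9 values. Without BF10 3 the difference of BF10 from control was 1.14 and from aCSF1R 1.65, and without aCSF1R 8 the difference of BF10 from aCSF1R was 1.05. Without aCSF1R 8 the change between aCSF1R and control turned from -0.50 to 0.75. Neutrophil markers stood apart in BF10 3 as well, with a sum of 16555 TPM over 7 markers against 427 to 3340.5 TPM in the other 11 libraries, and none of the 7 was listed at 0 in any library. By group the sum was 824 to 1796 TPM in control, 928 to 2179 TPM in IL-10-Fc, 427 to 3340.5 TPM in aCSF1R and 719 to 16555 TPM in BF10. The sum was mostly that of S100a8 and S100a9, with means of 1055 and 1541 TPM over the 12 libraries, against 5.45 to 63.3 TPM for the other 5 markers. None of the 7 was called in any comparison by limma. Mmp9 was lowest in aCSF1R 8, where the marker sum was 3340.5 TPM. The part of neutrophil number in the Mmp9 levels was not tested.

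Mmp2 (gelatinase A, at chr8:92827291-92853420), a product mainly of fibroblasts, showed no separation by treatment. It was at 105, 141 and 45.4 TPM in control 4, 5 and 7, at 108, 280.2 and 161 TPM in the IL-10-Fc tumors 2, 4 and 7, at 232, 116 and 56.3 TPM in aCSF1R 4, 6 and 8 and at 474, 63.5 and 106 TPM in BF10 3, 6 and 7. All groups overlapped, and the widest spread was within BF10, where BF10 3 stood far above the other tumors. The log2 changes against control were 0.95 for IL-10-Fc, 0.39 for aCSF1R and 0.75 for BF10, each with a 95% confidence interval that includes 0, and without BF10 3 the last became -0.090. Under the model with the library set they were 0.58, 0.018 and 0.38. The ratio of Mmp9 to Mmp2 was 0.825 to 1.06 in control, 0.163 to 0.908 in aCSF1R, 1.42 to 2.96 in IL-10-Fc and 1.49 to 2.53 in BF10. All 6 tumors given interleukin-10 had more Mmp9 than Mmp2, and 1 of the 6 others did. The library set was not taken out of this ratio. The members were chosen with results of these data known, so the ratio is a description only.

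**Figure D2:**
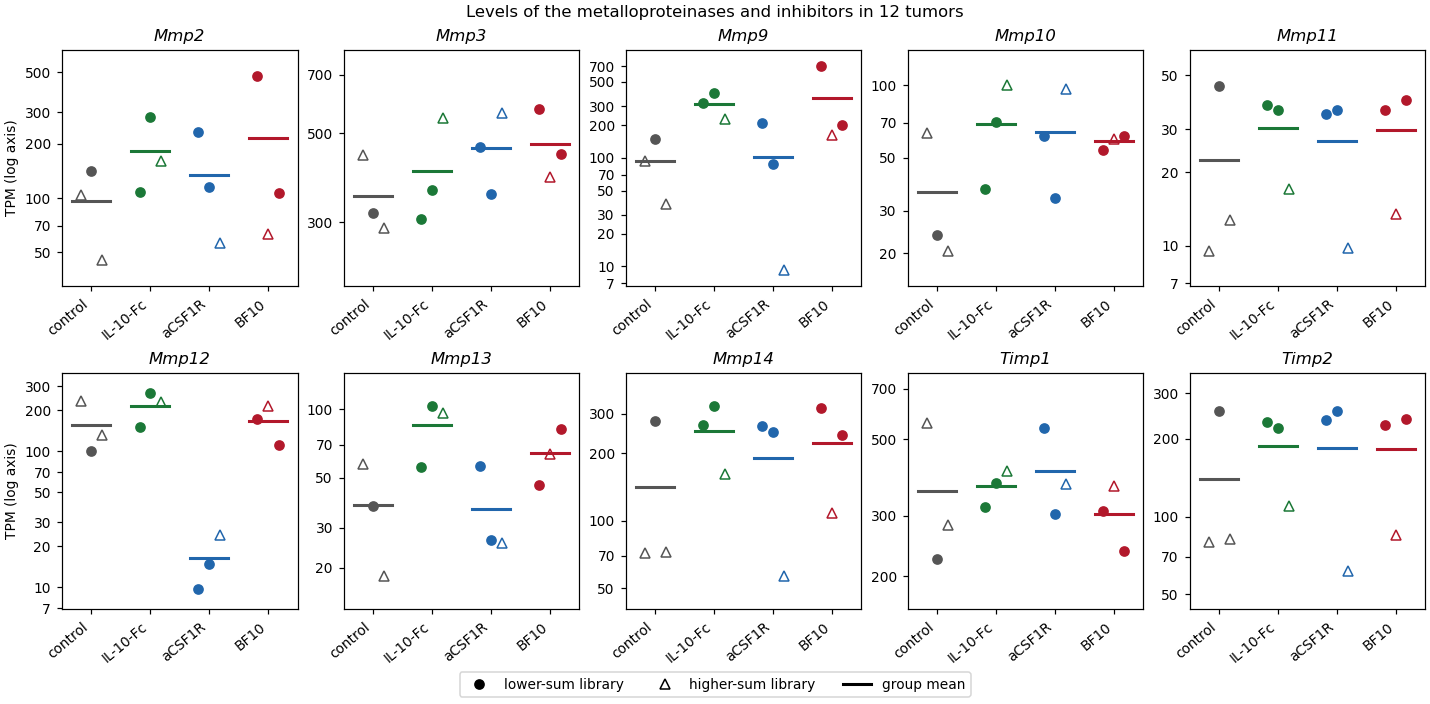
TPM (log axis, scaled separately in each panel) of the 10 genes in the 12 tumors by treatment, with filled circles for lower-sum libraries, open triangles for higher-sum libraries and horizontal bars for group means (n = 3). The aCSF1R tumors sit apart in Mmp12 at 9.69 to 24.3 TPM, and the triangles sit below the circles in Mmp11, Mmp14 and Timp2.

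Among the stromelysins, which cleave laminin, fibronectin and proteoglycans and activate other metalloproteinases, Mmp3 had the highest mean level of the 10 members and the narrowest range, the highest value being 1.98 times the lowest. It ranged from 291 TPM in control 7 to 577 TPM in BF10 3, and its group means were 349.9 ± 81.0 TPM in control, 404 ± 126 TPM in IL-10-Fc, 459.6 ± 105 TPM in aCSF1R and 470.3 ± 96.0 TPM in BF10 (SD, n = 3). All 4 groups overlapped. The change against control was 0.19 (95% confidence interval -0.44 to 0.81) for IL-10-Fc, 0.39 (-0.23 to 1.02) for aCSF1R and 0.43 (-0.19 to 1.06) for BF10. Adding the library set gave 0.27, 0.47 and 0.51. None of the 3 intervals reaches the size of the Mmp12 change.

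Mmp10 (stromelysin-2) was at 63.6, 23.9 and 20.4 TPM in control 4, 5 and 7. It was at 36.9, 70.6 and 100.4 TPM in the IL-10-Fc tumors 2, 4 and 7, at 61.8, 33.8 and 96.3 TPM in aCSF1R 4, 6 and 8 and at 53.9, 59.9 and 61.6 TPM in BF10 3, 6 and 7. The 2 lowest tumors were both controls, but control 4 lay above every BF10 tumor, so no treated group was separate from control. The log2 changes were 1.00 for IL-10-Fc, 0.88 for aCSF1R and 0.87 for BF10, and with the library set as a term they were 1.22, 1.10 and 1.09. With that term their unadjusted p by limma was 0.014, 0.024 and 0.025 and their adjusted p 0.942, 0.439 and 0.993. The tightest group of any member was Mmp10 in BF10, with a coefficient of variation of 6.93%.

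Mmp11 (stromelysin-3, at chr10:75923222-75936496 on the minus strand) is made by stromal fibroblasts of carcinomas and is activated inside the cell by furin. It was at 9.53, 45.4 and 12.8 TPM in control 4, 5 and 7, at 37.8, 35.9 and 17.1 TPM in the IL-10-Fc tumors 2, 4 and 7, at 34.5, 36.0 and 9.73 TPM in aCSF1R 4, 6 and 8 and at 36.2, 13.4 and 39.5 TPM in BF10 3, 6 and 7. The low values were those of the 5 higher-sum libraries in every group. The log2 change of Mmp11 against control was 0.65 for IL-10-Fc, 0.36 for aCSF1R and 0.56 for BF10, each with a 95% confidence interval that includes 0. With the library set as a term its change was 0.13 for IL-10-Fc, -0.16 for aCSF1R and 0.048 for BF10, and the 95% confidence intervals together spanned -0.60 to 0.57.

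Mmp13, the main interstitial collagenase of rodents and, like Mmp12, among the clustered genes of chromosome 9, was not called with the antibody. It was at 57.4, 37.6 and 18.4 TPM in control 4, 5 and 7 and at 56.3, 26.6 and 25.7 TPM in aCSF1R 4, 6 and 8, a change of -0.015 (95% confidence interval -1.01 to 0.98), or -0.047 with the library set as a term. In IL-10-Fc 2, 4 and 7 it was at 55.8, 104 and 96.6 TPM, and in BF10 3, 6 and 7 at 46.4, 63.9 and 81.8 TPM. The IL-10-Fc tumors lay above the control tumors except for control 4, which exceeded IL-10-Fc 2. The change in IL-10-Fc was 1.24 (SE 0.45, 95% confidence interval 0.24 to 2.24, unadjusted p = 0.019, adjusted p = 0.738 by limma), and 1.21 with the library set as a term. BF10 against control gave 0.85 (95% confidence interval -0.15 to 1.85), and 0.82 with that term, and neither passed the test after adjustment.

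Mmp14, the membrane-type metalloproteinase at chr14:54431612-54445364, cuts collagen at the cell surface and, with Timp2 as a bridge, activates the precursor of Mmp2. It was at 72.2, 278 and 72.7 TPM in control 4, 5 and 7, at 267, 326 and 162 TPM in the IL-10-Fc tumors 2, 4 and 7, at 266, 250.0 and 56.6 TPM in aCSF1R 4, 6 and 8 and at 319, 108 and 240.1 TPM in BF10 3, 6 and 7. The 7 lower-sum libraries were at 240.1 to 326 TPM and the 5 higher-sum libraries at 56.6 to 162 TPM, without overlap. With the library set as a term the change was 0.56 for IL-10-Fc (95% confidence interval 0.00 to 1.11, adjusted p = 0.942 by limma), -0.073 for aCSF1R and 0.30 for BF10.

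Neither inhibitor was called in any comparison of treatments. Timp1 (chrX:20870166-20874735), a secreted inhibitor induced in inflamed tissue, was at 557, 225 and 281 TPM in control 4, 5 and 7, at 317, 373 and 404 TPM in the IL-10-Fc tumors 2, 4 and 7, at 538, 303 and 372 TPM in aCSF1R 4, 6 and 8 and at 309, 366 and 237 TPM in BF10 3, 6 and 7. All groups lay within the range of the control tumors. Its log2 change against control was 0.15 (95% confidence interval -0.60 to 0.90) for IL-10-Fc, 0.26 (-0.49 to 1.01) for aCSF1R and -0.13 (-0.88 to 0.62) for BF10, and 0.26, 0.37 and -0.018 in the model that holds the library set. Timp2 (chr11:118301069-118355740 on the minus strand) was at 221 to 258 TPM in the lower-sum and at 61.4 to 109.6 TPM in the higher-sum libraries, whatever the treatment. The log2 changes of Timp2 against control were 0.58 for IL-10-Fc, 0.38 for aCSF1R and 0.48 for BF10, each with a 95% confidence interval that includes 0. With the library set as a term its changes were 0.068, -0.13 and -0.032 for IL-10-Fc, aCSF1R and BF10, and the 3 intervals together spanned -0.51 to 0.45.

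**Figure D3:**
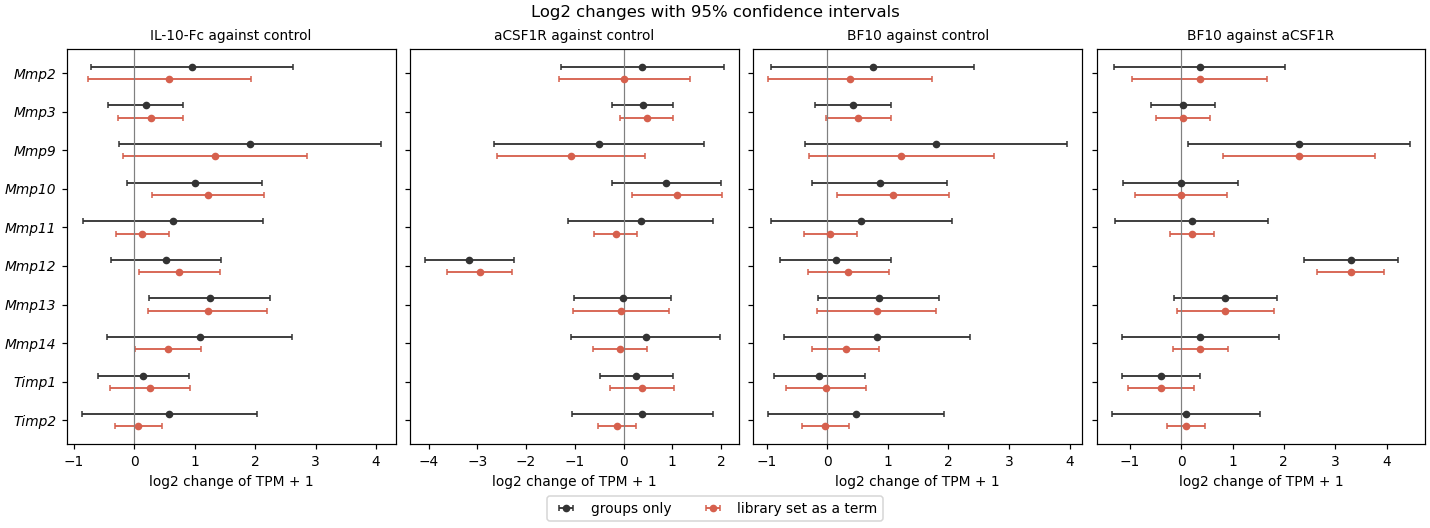
Log2 change of TPM + 1 (points) with 95% confidence intervals (bars) of the 10 genes in 4 comparisons, from the model with groups only (black) and with the library set as a term (red). Only the intervals of Mmp12 in the 2 comparisons with aCSF1R, around -3.17 and 3.30, lie wholly beyond 2 log2 units.

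Counted over all 10 members, the calls were few. Against control, 0 members were called with BF10, 0 with IL-10-Fc and 1 with aCSF1R, and 0 were called between BF10 and IL-10-Fc. Over all tested genes limma called 0 for BF10 against control (234 at an unadjusted p below 0.05), 1 for IL-10-Fc against control (lower, 0.00645%, with 224 at an unadjusted p below 0.05) and 0 for BF10 against IL-10-Fc (42 at an unadjusted p below 0.05). Changes were above 0 in 10 of 10 members for IL-10-Fc, 9 for BF10 and 7 for aCSF1R against control, where 79.7, 77.4 and 73.5% of all tested genes were above 0. The median change of the members was 0.80, 0.66 and 0.37, and that of all tested genes 0.35, 0.32 and 0.24. In the model that holds the library set, 10, 8 and 4 members were above 0, the median change of the members was 0.57, 0.36 and -0.060, and that of all tested genes was 0.10, 0.068 and 0.0068. With scaling by the median of ratios the medians of all tested genes moved to 0.0026, 0.019 and 0.033, and 8, 8 and 7 members stayed above 0. On that scale Mmp9 was at 1.48 for IL-10-Fc and 1.43 for BF10 against control, and Mmp12 at -3.38 for aCSF1R. BF10 and IL-10-Fc shared their control tumors, so that their differences from control are not independent of each other.

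Several members differed between the library sets. With the groups in the model, 6 of the 10 members were called between the higher-sum and the lower-sum libraries, where 54.0% of all tested genes were called lower and 5.23% higher in the higher-sum libraries. Mmp9, Mmp14, Mmp11, Timp2 and Mmp2 were lower in the higher-sum libraries, by log2 differences of -1.73, -1.58, -1.55, -1.53 and -1.11, and Mmp12 was higher by 0.64 (SE 0.22, adjusted p = 0.022 by limma). Mmp10 at 0.66, Timp1 at 0.34, Mmp3 at 0.25 and Mmp13 at -0.10 did not pass the test. The median of all tested genes was -0.68, so relative to it the chromosome 9 genes and Timp1 sat above and the other 5 members below. The 4 clustered genes also had the lowest GC contents of the 10, 40.1% in Mmp12, 41.7% in Mmp13, 45.9% in Mmp3 and 46.0% in Mmp10, against 52.8 to 56.6% in the other 6. The part of base composition in the set difference was not tested.

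**Figure D4:**
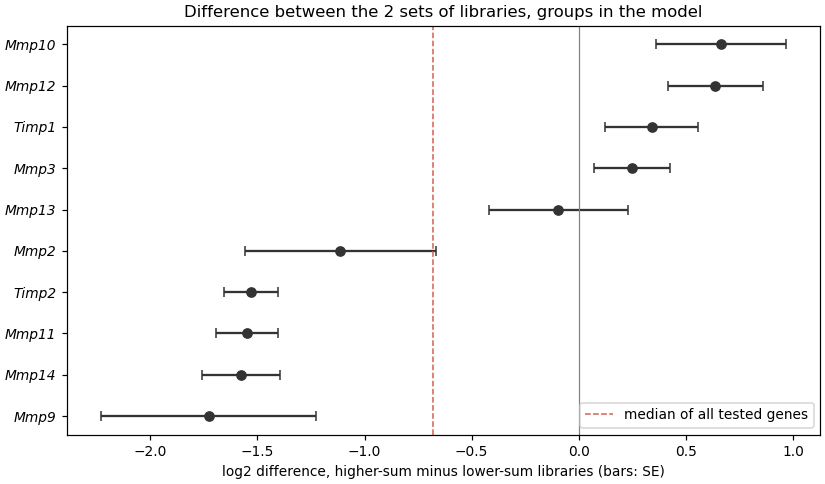
Log2 difference between higher-sum and lower-sum libraries (points) with SE (bars) for the 10 genes, groups being in the model, and the median of all 15504 tested genes (dashed line, at -0.68). Mmp9, Mmp14, Mmp11, Timp2 and Mmp2 lie to the left of the dashed line and the other 5 genes to the right.

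The balance between enzymes and inhibitors was described by the summed TPM of the 8 metalloproteinases over that of Timp1 and Timp2. The ratio was 1.69, 2.26 and 1.73 in control 4, 5 and 7, 2.32, 3.10 and 3.00 in IL-10-Fc 2, 4 and 7, 1.72, 1.64 and 1.94 in aCSF1R 4, 6 and 8 and 4.46, 2.38 and 2.71 in BF10 3, 6 and 7. The 6 tumors given interleukin-10 in either form were at 2.32 to 4.46 and the 6 others at 1.64 to 2.26, so the ranges did not overlap, although the gap between 2.26 and 2.32 was small. The tumors at this gap, control 5 and IL-10-Fc 2, were both lower-sum libraries, and the library set was not taken out of the ratio. No member alone separated these 6 tumors from the 6 others. The part of Mmp9 in the separation was not tested. Since the members were chosen with results of these data known, no p is given. The inhibitor sum had means of 494 ± 137 TPM in control, 553 ± 40.2 TPM in IL-10-Fc, 589 ± 172 TPM in aCSF1R and 487 ± 42.9 TPM in BF10 (SD, n = 3). The enzyme sum was 932 ± 262 TPM in control and 1031 ± 265 TPM in aCSF1R, and 1555 ± 282 TPM in IL-10-Fc and 1580.1 ± 703 TPM in BF10 (SD, n = 3).

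The make-up of the enzyme sum also differed between groups. Mmp12 took 17.2 ± 6.90% of it in control, 13.7 ± 1.74% in IL-10-Fc, 11.9 ± 6.92% in BF10 and 1.75 ± 1.09% in aCSF1R. Mmp9 took 9.44 ± 3.87% in control and 8.82 ± 7.37% in aCSF1R, and 20.4 ± 5.14% in IL-10-Fc and 20.1 ± 8.24% in BF10. Mmp3 took the largest share in every group mean, from 26.3 ± 8.18% in IL-10-Fc to 46.7 ± 17.6% in aCSF1R (SD, n = 3 throughout).

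**Figure D5:**
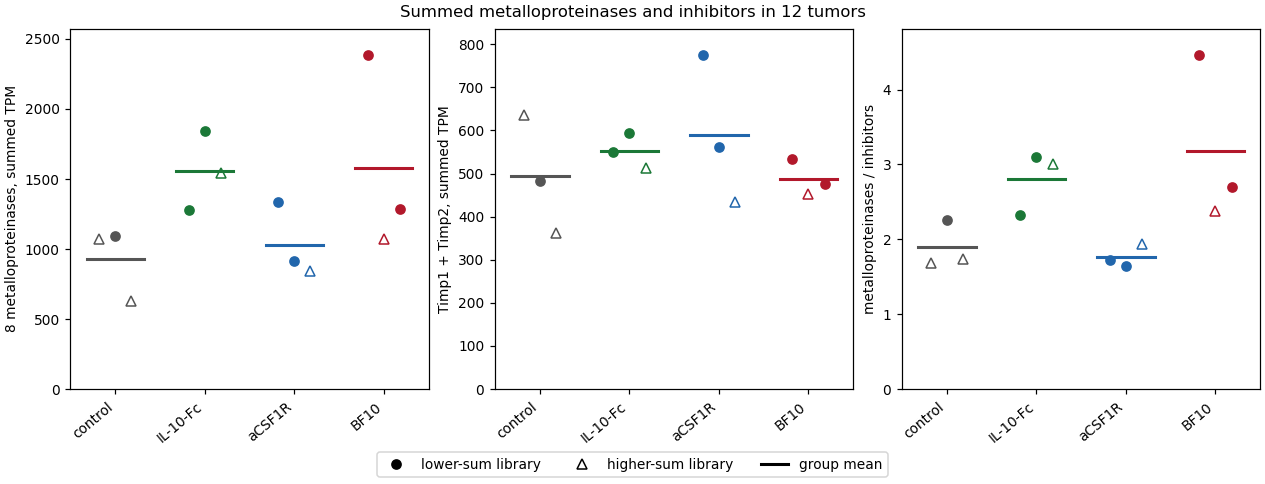
Summed TPM of the 8 metalloproteinases (left), summed TPM of Timp1 and Timp2 (middle) and their ratio (right) in the 12 tumors by treatment, with circles for lower-sum libraries, triangles for higher-sum libraries and bars for group means (n = 3). The ratio is at 2.32 to 4.46 in IL-10-Fc and BF10 and at 1.64 to 2.26 in control and aCSF1R.

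The genes whose levels ran most like those of each member across the 12 tumors, after the mean of each library set was taken away, are given as a description, and the tumors share treatment groups. Mmp12 ran closest to Gpr141 (Pearson r = 0.97, Spearman rho = 0.90) and Clec5a (r = 0.97, rho = 0.85), a C-type lectin receptor of myeloid cells. Mmp9 ran closest to Alg3 (r = 0.98, rho = 0.96) and Metrnl (r = 0.98, rho = 0.95), and Mmp2 to the homeobox genes Prrx2 (r = 0.98, rho = 0.97) and Hoxc6 (r = 0.97, rho = 0.99). Without the 2 tumors farthest from the median of the member these 6 values of r were 0.93, 0.95, 0.96, 0.95, 0.97 and 0.94.

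For the remaining members the closest genes were Gem and Gng8 for Mmp3, Hmgb1 and Apol10b for Mmp10, Mtfp1 and Pcyox1 for Mmp11, Stom and Raet1d for Mmp13, Guk1 and Hacd2 for Mmp14, Mt1 and Kcne3 for Timp1, and Atp9b and Swap70 for Timp2, with r from 0.91 to 0.97. Without the 2 farthest tumors these fell to between 0.69 and 0.94, the lowest being 0.69 and 0.72 for Mmp10 with Apol10b and Hmgb1 and 0.73 for Timp2 with Swap70, so those likenesses rest in part on those tumors. Among the members themselves r exceeded 0.8 in 3 pairs, Mmp9 with Mmp14 (r = 0.82), Mmp11 with Timp2 (r = 0.81) and the clustered Mmp3 with Mmp10 (r = 0.80). Mmp12 and the other clustered members were less alike, with r = 0.55 for Mmp13, -0.17 for Mmp3 and -0.021 for Mmp10.

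The rest of the pathway showed no called gene in any of the 5 comparisons. Of the 15 other metalloproteinases 10 passed the filter on low values and none was called, and the same held for 2 of 3 other inhibitors (Timp3, Timp4 and Reck), 6 of 7 genes of plasminogen activation, which turns on the protease plasmin, 15 of 15 adamalysins, the related ADAM and ADAMTS proteases, 14 of 14 matrix substrates such as collagens and fibronectin, and 13 of 13 binding partners and regulators. For aCSF1R against control the median log2 changes of these lists were 0.15, 0.61, 0.46, 0.55, 0.46 and 0.38, beside 0.24 for all tested genes, and with the library set as a term they were 0.021, -0.0039, -0.081, 0.021, -0.0019 and 0.037. For IL-10-Fc against control they were 0.47, 0.75, 0.99, 0.88, 0.92 and 0.73, beside 0.35 for all tested genes, and with the term 0.40, 0.14, 0.62, 0.44, 0.43 and 0.25. For BF10 against control they were 0.20, 0.71, 0.77, 0.76, 0.60 and 0.64, beside 0.32, and with the term 0.17, 0.10, 0.25, 0.26, 0.13 and 0.29.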

How the data were processed

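RNA from 12 tumors was sequenced in bulk, as stranded libraries of polyadenylated RNA. The submitters' processing notes name STAR 2.7.5a, RSEM 1.3.3, DESeq2 1.28.0 and the builds mm10 and GRCm38. The authors deposited FPKM with 2 decimals for 55401 genes, and 0 columns were left unmatched to a sample. Another 4 tables of the authors hold their own DESeq2 comparisons (fold changes and p-values) and were not used.

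FPKM were divided by the library sum and brought to a total of 1000000 (TPM). The 15504 genes that reached a TPM of 1 in 3 or more libraries were tested on log2(TPM + 1), which understates the fold change of low genes, by limma 3.58.1 with a mean-variance trend in its eBayes step (R 4.3.3). The 4 groups shared 1 estimate of the spread (8 residual degrees of freedom), and p-values were adjusted by Benjamini-Hochberg over all tested genes. Within-set values and leave-one-out values are differences of mean log2 levels or refits of the same model. FPKM hold no counts, so no counting interval is given. Relative depth came from 111 low genes. The p-values measure only the spread between these tumors.

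The members and lists were chosen with earlier results of these data known, among them the sets of libraries. Named were all members, every called gene of the other pathway lists (0 were called) and the 2 genes most like each member. Markers of cell types were given as sums and counts, with the lowest and highest of a list. Positions come from GENCODE M21 (GRCm38) and promoters from RefSeq. Deviations of same-numbered tumors of different groups had r from -0.66 to 0.42 (7 pairs, median -0.39). The library sets were not taken out of these values. Pairs within the same set had r of 0.35 and 0.42, and every pair across the sets had an r below 0. The values therefore cannot decide whether the numbers pair the tumors, and the main fit took no pairing. Alternatives were a pseudocount of 0.1, FPKM without rescaling, 2 other scalings, 2 other filters, a replicate block, a term for the library set, only the groups compared, only the lower-sum libraries and each library left out.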

Additional observations from a re-analysis of the deposited data

How the results depend on the processing

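The Mmp12 differences from aCSF1R kept their direction under every alternative, from -4.25 to -2.83 against control and from 3.00 to 3.82 for BF10. Precision was limited by 3 tumors a group, and the depth in counts is unknown. Most other member changes were small beside their error, and their signs turned in 86 of the 1100 values under the alternatives. The cause was not tested for any change of sign or count. The smallest fits had 3 residual degrees of freedom (lower-sum libraries, with 1 control) and 2 (replicate block), so a lone library was assumed to vary like the others.

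With scaling by the median of ratios, 136 genes were called for aCSF1R against control, 1 between BF10 and IL-10-Fc, and 0 members in either comparison with aCSF1R. Mmp12 for BF10 against control was then -0.24, Mmp3 and Timp1 for IL-10-Fc against control -0.25 and -0.29, and Mmp3 and Timp2 for BF10 against aCSF1R -0.10 and -0.042. Without rescaling, Mmp12 was -0.051 for BF10, and Mmp3 and Timp1 -0.028 and -0.069 for IL-10-Fc against control, where 0 genes were called. For IL-10-Fc against control 0 genes were called with a pseudocount of 0.1, with a TPM of at least 5 as the filter, with the 2 groups only and with the total without mitochondrial and ribosomal protein genes, under which Mmp3 for BF10 against aCSF1R was -0.0027. With no filter 2 were called there and 1 for BF10 against IL-10-Fc. With the 2 groups only, 4 genes were called for aCSF1R against control, 1 between BF10 and IL-10-Fc, 0 between BF10 and aCSF1R, and 0 members.

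With the replicate block, 0 genes were called for aCSF1R and for IL-10-Fc against control and 1 each for BF10 against control, IL-10-Fc and aCSF1R, with 0 members. The adjusted p of Mmp12 by limma was 0.0530 for aCSF1R against control and 0.0662 for BF10 against aCSF1R. Under the block Mmp12 was -0.43 for BF10 and Timp1 -0.028 for IL-10-Fc against control. For aCSF1R against control, Mmp9 was 1.32, Mmp13 0.39 and Timp1 -0.082. For BF10 against IL-10-Fc, Mmp11 was 0.25, Mmp13 0.092 and Timp2 0.23. For BF10 against aCSF1R, Mmp2 was -0.56, Mmp10 0.70, Mmp11 -0.61, Mmp14 -0.58 and Timp2 -0.75. The check of the numbers left the library sets in, so it cannot decide whether same-numbered tumors are paired. Why the calls were lost here was not tested.

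With the library set as a term, 1, 4, 312 and 437 genes were called for BF10, IL-10-Fc and aCSF1R against control and BF10 against aCSF1R. Timp2 was then -0.032 for BF10 against control, and Mmp11, Mmp14 and Timp2 were -0.16, -0.073 and -0.13 for aCSF1R against control. With the lower-sum libraries only, 1, 2, 34 and 1 genes were called for BF10, IL-10-Fc and aCSF1R against control and BF10 against IL-10-Fc, and 0 members for aCSF1R against control. Mmp11, Mmp14, Timp1 and Timp2 were -0.26, -0.0071, 0.27 and -0.15 for BF10 against control. Mmp11 and Timp2 were -0.29 and -0.18 for IL-10-Fc, and Mmp11, Mmp13, Mmp14 and Timp2 were -0.35, 0.044, -0.11 and -0.061 for aCSF1R, both against control. Mmp2, Mmp9, Mmp10, Mmp11 and Timp2 were 0.37, 0.081, 0.17, 0.037 and 0.030 for BF10 against IL-10-Fc, and Mmp10 and Timp2 were 0.33 and -0.089 for BF10 against aCSF1R.

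Leaving out each library in turn gave 0 to 1 called genes for IL-10-Fc against control, and 0 to 1 between BF10 and IL-10-Fc. It gave 55 to 91 for aCSF1R against control, with 58 without control 4 and 55 without aCSF1R 6. Between BF10 and aCSF1R it gave 54 to 108, with 54 without BF10 3, 61 without aCSF1R 6 and 72 without BF10 7. For BF10 against control, Mmp2 ranged from -0.090 to 1.35, Mmp12 from -0.12 to 0.47 and Timp1 from -0.40 to 0.25. For IL-10-Fc against control, Mmp3 ranged from -0.051 to 0.37 and Timp1 from -0.12 to 0.53. For aCSF1R against control, Mmp2 ranged from -0.11 to 0.90, Mmp9 from -1.44 to 0.75, Mmp11 from -0.063 to 1.01, Mmp13 from -0.45 to 0.35 and Timp1 from -0.012 to 0.64. For BF10 against IL-10-Fc, Mmp2 ranged from -1.04 to 0.40, Mmp9 from -0.77 to 0.29, Mmp10 from -0.52 to 0.19, Mmp11 from -0.44 to 0.39, Mmp14 from -0.58 to 0.20 and Timp2 from -0.45 to 0.38. For BF10 against aCSF1R, Mmp2 ranged from -0.48 to 0.96, Mmp3 from -0.14 to 0.20, Mmp10 from -0.40 to 0.34, Mmp11 from -0.38 to 0.68, Mmp14 from -0.35 to 0.83 and Timp2 from -0.57 to 0.57.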

Other observations

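A pair of metalloproteinases outside the 10 members was singled out after their values were seen. Mmp8, the collagenase of neutrophil granules, was at 78.7 TPM in BF10 3 and at 2.94 to 16.2 TPM in the other 11 libraries, with IL-10-Fc 4 the next highest. Mmp25, a membrane-anchored enzyme of leukocytes, was at 9.82 TPM in BF10 3 and at 0.163 to 2.61 TPM in the others. Both were highest in the library with the largest sum of neutrophil markers and of Mmp9, and neither was called in any comparison by limma.

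The sums of the other inhibitors (Timp3, Timp4 and Reck) and of the genes of plasminogen activation were lower in every higher-sum than in every lower-sum library. The inhibitors summed to 4.87 to 11.0 TPM in the 5 higher-sum and 26.7 to 56.7 TPM in the 7 lower-sum libraries, and plasminogen activation to 89.2 to 362 TPM and 425 to 716 TPM. The sums of the 14 matrix substrates overlapped between the sets, at 9229 to 15392 TPM and 9677 to 15522 TPM, and Spp1 was the most abundant of the 14, with a mean of 5980 TPM over the 12 libraries. Col1a1, named after its values were seen, was at 88.8 to 522.2 TPM in the higher-sum and at 522.5 to 2597 TPM in the lower-sum libraries.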
